A study of Mus musculus with 42 samples.

Results

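The genes described here carry pyruvate into the tricarboxylic acid (TCA) cycle, turn the cycle, exchange its intermediates with the cytosol and divert it to itaconate. They were chosen by name, with earlier results of these data known, as 34 gene symbols matched through their Ensembl identifiers to the 37310 genes of a raw count table, and all 34 were found. The libraries were RNA-seq of bone-marrow-derived macrophages (BMDM), which are macrophages grown in culture from mouse bone marrow. BMDM came from mice labelled KO, in which myeloid cells lack the transcription factor Irf5 (interferon regulatory factor 5) by design, or from wild-type littermates labelled WT. In the study's methods, mice with a floxed Irf5 gene were crossed to LysM-Cre mice, so the recombinase is driven by the Lyz2 gene, which macrophages and granulocytes use. The wild-type littermates are not said to carry the recombinase, and the age of the mice and any pooling are not given in the labels. Each genotype had 7 groups of 3 libraries: Control at 0, 2 and 24 h, palmitate (a saturated fatty acid) at 2 and 24 h, and lipopolysaccharide (LPS, a component of the bacterial outer membrane) at 2 and 24 h. Libraries are numbered 1 to 3 within a group only to name them. The labels do not say that the 3 libraries of a group came from separate mice, so p-values measure the spread between these libraries, which may be technical.

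In the TCA cycle, acetyl-CoA condenses with oxaloacetate to citrate, which is isomerised, decarboxylated and oxidised back to oxaloacetate while the electrons it loses are passed to the respiratory chain. The pyruvate dehydrogenase complex makes the acetyl-CoA, and kinases (Pdk) switch that complex off while phosphatases (Pdp) switch it on. In macrophages exposed to LPS, the enzyme encoded by Acod1 (also called Irg1) decarboxylates the cycle intermediate cis-aconitate to itaconate, which inhibits succinate dehydrogenase and is one of the best known immune metabolites. Malate and aspartate move reducing equivalents between mitochondria and cytosol, through malate dehydrogenases (Mdh1 in the cytosol, Mdh2 in mitochondria), aspartate aminotransferases (Got1 and Got2) and carriers of the inner membrane such as Slc25a11.

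The total count per library was between 2848793 and 7743442, with 4 libraries under 4000000: library 1 of Control 24 h and library 1 of LPS 2 h in each genotype. Levels are given as CPM, counts relative to the scaled library size, and 3 counts stood for 0.387 to 1.05 CPM. The filter on low counts kept 11624 genes, all 34 members among them. The 7 macrophage markers summed to 9650 to 23300 CPM in every library. Irf5 was not lower in the libraries labelled KO: it stood at 267 to 430 CPM in them and at 210 to 389 CPM in those labelled WT, and counts over the whole gene do not show whether a floxed exon is missing. Irf5 also shares part of its span with Tnpo3 on the other strand, and the use of strand in counting is not given. Genotypes are therefore named by their labels throughout. Lyz2, the gene that carries the recombinase, stood at 4683 to 8766 CPM in the KO libraries and at 8025 to 14587 CPM in the WT libraries. Lyz2 is itself among the 7 macrophage markers, so a large part of their sum is Lyz2. Markers of other cells summed to 19.3 to 83.7 CPM (WT) and 42 to 204 CPM (KO) for granulocyte precursors, to 0 to 58.7 CPM (WT) and 0 to 306 CPM (KO) for fibroblasts, and to at most 13 CPM for B cells, 8.69 CPM for dendritic cells, 1.64 CPM for T or NK cells and 0.369 CPM for erythroid cells.

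Acod1, the only member that changed by more than a log2 fold change of 1 under any treatment, lies on chromosome 14 (ENSMUSG00000022126, plus strand, 103046977 to 103056573 in GRCm38, the assembly also called mm10). Mdh2 (ENSMUSG00000019179, chromosome 5) and Dlat (ENSMUSG00000000168, chromosome 9) stand here for the ring and for the pyruvate dehydrogenase complex, since they rose with LPS at 24 h in both genotypes. The promoter windows of these 3 genes are printed so that the short motifs found in them can be seen. RefSeq windows (GRCm38.p6, 250 bases before to 50 bases after the start of transcription) were matched for 31 of the 34 members, in 41 windows. Each window is written from 5′ to 3′ on the strand of the gene, and capitals mark the motif matches named after it.

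Acod1, chr14:103046762-103047061, plus strand: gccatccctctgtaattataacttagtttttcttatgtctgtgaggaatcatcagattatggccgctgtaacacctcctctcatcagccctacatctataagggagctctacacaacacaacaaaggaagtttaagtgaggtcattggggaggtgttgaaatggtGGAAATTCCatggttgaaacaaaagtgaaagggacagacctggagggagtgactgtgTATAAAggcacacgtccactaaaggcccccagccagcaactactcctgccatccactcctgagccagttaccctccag
Mdh2, chr5:135778399-135778698, plus strand: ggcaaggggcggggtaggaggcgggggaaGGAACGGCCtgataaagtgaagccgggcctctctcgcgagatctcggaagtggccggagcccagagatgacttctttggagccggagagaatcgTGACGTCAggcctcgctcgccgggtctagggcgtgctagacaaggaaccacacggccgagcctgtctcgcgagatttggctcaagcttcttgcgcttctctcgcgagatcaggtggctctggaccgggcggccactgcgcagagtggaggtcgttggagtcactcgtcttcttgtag
Dlat, chr9:50659731-50660030, minus strand: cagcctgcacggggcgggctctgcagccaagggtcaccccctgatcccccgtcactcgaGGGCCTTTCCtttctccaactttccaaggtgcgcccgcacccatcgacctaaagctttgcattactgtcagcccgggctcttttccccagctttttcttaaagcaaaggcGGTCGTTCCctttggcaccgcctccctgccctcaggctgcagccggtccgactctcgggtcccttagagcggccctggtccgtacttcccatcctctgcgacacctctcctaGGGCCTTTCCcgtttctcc

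In the Acod1 window, the capitals mark a TATA box that begins at position -28 from the start and, at position -85, a match to GGNNNTTCC, a loose form of the site of NF-kappaB, the factor that LPS activates through its receptor. The Mdh2 window holds a CREB palindrome (TGACGTCA) at -127 and a match to the loose NF-kappaB form at -221, on the other strand. The Dlat window holds the stricter NF-kappaB form, GGG and TTCC with any 3 bases between them, at -191 and at 31, and the loose form alone at -81. Both strands were searched, and every match of the stricter form also holds a match of the loose one.

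The stricter NF-kappaB form was in the windows of 3 members (Suclg2, Dlat and Pcx), which is 9.677% of those matched, against 6.305% of 27025 genes. The loose form was in 8 members (25.806%, against 20.662% of genes), and the TATA box (TATAAA) in Got2 and Acod1 (6.452%, against 15.667%). These last 2 motifs were added after the Acod1 sequence had been read. The CREB palindrome was in Ogdh and Mdh2 (6.452%, against 2.031%), the AP-1 site (TGANTCA) in Me1 and Slc25a11 (6.452%, against 8.973%), and the interferon-stimulated response element (GAAA, any 2 bases, GAAA) in Suclg2 alone (3.226%, against 3.993%). The NRF1 palindrome (GCGCA followed by TGCGC) and the element of oestrogen-related receptors (TCAAGGTCA), 2 motifs of factors of mitochondrial biogenesis, were in 0 of the 31 members, against 1.073% and 0.466% of genes. A match is a run of letters in these 300 bases and was not tested as a binding site.

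Acod1 rose steeply with LPS in both genotypes. After 2 h it stood at 2350, 2504 and 2239 CPM in the WT LPS libraries and at 90.6, 104 and 90.7 CPM in the WT Control libraries of the same time. In KO it stood at 3033, 2764 and 2824 CPM with LPS and at 99.9, 87.7 and 83.1 CPM in Control. Every LPS library was far above every Control library. The log2 fold change was 4.64 (adjusted p = 7.91e-32, SE 0.14, edgeR quasi-likelihood test) in WT and 4.99 (adjusted p = 6.53e-33, SE 0.14) in KO.

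At 24 h Acod1 was still high, but less so. The WT LPS libraries held 602, 627 and 551 CPM and the KO LPS libraries 658, 512 and 686 CPM. Their Controls held 37.3, 37.2 and 35.3 CPM (WT) and 41, 31.7 and 32 CPM (KO). The groups again did not overlap, with log2 fold changes of 4.02 (adjusted p = 6.51e-28, SE 0.15) and 4.17 (adjusted p = 1.79e-28, SE 0.15). Over both genotypes, the response at 24 h was smaller than at 2 h by a tested log2 difference of -0.72 (adjusted p = 4.13e-05, SE 0.14).

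Acod1 was higher in every KO than in every WT library with LPS at 2 h, at a mean of 2874 ± 141 against 2365 ± 133 CPM (SD, n = 3). The difference did not pass the test, with a log2 fold change of 0.28 (adjusted p = 0.307, SE 0.12), and neither did the difference between the 2 responses (0.36, adjusted p = 0.715, SE 0.18). At 24 h the genotypes overlapped, at 619 ± 93.4 (KO) and 593 ± 38.9 CPM (WT), with a log2 fold change of 0.06 (adjusted p = 0.923, SE 0.12).

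Acod1 also moved without any treatment. It stood at 24.4, 14.7 and 17.7 CPM in WT Control at 0 h and at 27.3, 16.6 and 36.9 CPM in KO Control at 0 h. The Control libraries at 2 h were all higher, and those at 24 h overlapped with 0 h, since 1 KO library at 0 h (36.9 CPM) was above 3 of the 6 libraries at 24 h. Over both genotypes the log2 fold change from 0 h was 2.05 (adjusted p = 1.95e-19, SE 0.12) at 2 h and 0.66 (adjusted p = 0.000308, SE 0.14) at 24 h. From the lowest group mean (WT Control 0 h) to the highest (KO LPS 2 h), Acod1 spanned a ratio of 151.7.

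**Figure D1:**
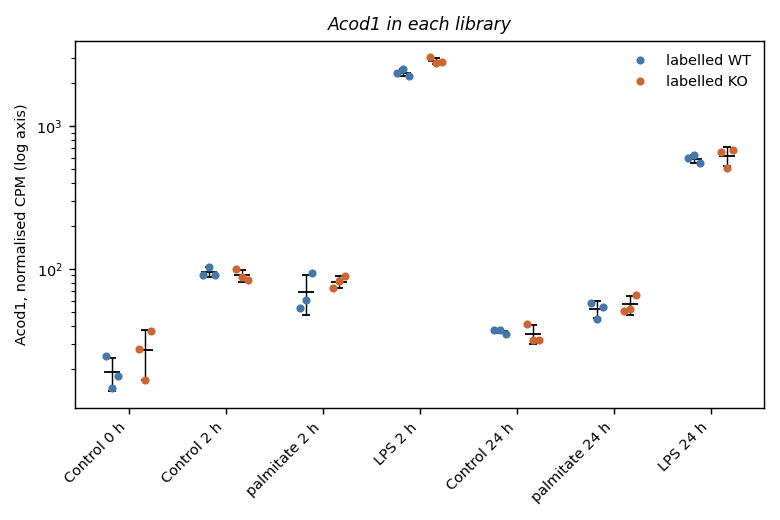
Level of Acod1 in all 42 libraries, in CPM on a log axis, by condition. Points are single libraries (blue, labelled WT, and orange, labelled KO) and bars the mean ± SD of 3. Both LPS groups at 2 h sit between 2239 and 3033 CPM, both at 24 h between 512 and 686 CPM, and Control rises from 0 h to 2 h.

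To compare levels between genes, counts were divided by the length of each gene's exons and scaled to the same sum in each library. On this scale Idh1, the cytosolic NADP-linked isocitrate dehydrogenase, was the highest member in WT Control at 0 h, at 122 ± 12.0 (SD, n = 3). Glud1, which releases ammonia from glutamate, followed at 59.2 ± 6.40. Mdh1 and Mdh2 did not differ beyond their spread, at 36.7 ± 1.75 and 35.8 ± 4.30. This order depended on the length used: by the longest transcript Mdh2 was 2nd at 74.4 ± 8.51, Glud1 3rd at 68.8 and Mdh1 4th at 41.6 ± 1.74. Pcx, which carboxylates pyruvate to oxaloacetate, was lowest by either length, at 1.35 ± 0.38. Acod1 was the 24th of the 34 in this group, the 5th in WT Control at 2 h and the 14th in WT Control at 24 h, and by the longest transcript the 29th, 8th and 21st. With LPS it was the 1st in both genotypes at both times and by both lengths, at a level per length of 732.5 ± 21.6 in WT at 2 h and 226.5 ± 20.5 at 24 h.

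**Figure D2:**
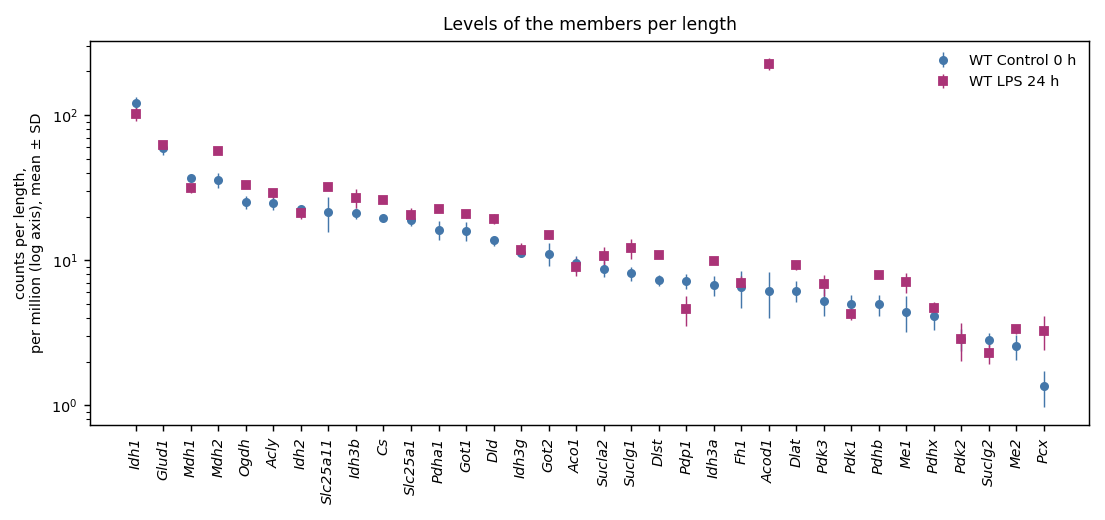
Level per length of the 34 members in WT, as scaled counts per exon length, on a log axis, in Control at 0 h (circles) and with LPS at 24 h (squares). Marks are means and bars the SD of 3 libraries. Acod1 moves from the 24th place to the top, while the other members shift little beside the distance between genes.

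At 2 h of LPS few other members passed the test. Of the 34, 5 were called in WT (14.7%, 3 higher and 2 lower), where 23.1% of all tested genes were called, 14% higher and 9.1% lower. In KO 7 were called (20.6%, 5 higher and 2 lower), where 23.9% of all genes were, 14.7% higher and 9.16% lower. Groups did not overlap for 8 members in WT (23.5%, against 35.2% of all genes) and for 12 in KO (35.3%, against 34.1%). The median size of the log2 fold change over the members was 0.0944 in WT and 0.128 in KO, below the 0.231 and 0.240 of all genes. In these bulk libraries, fewer cells of a type and less RNA per cell cannot be told apart. The summed cell cycle markers were higher with LPS at 2 h (657 to 820 CPM in WT, 828 to 985 CPM in KO) than in Control (250 to 397 and 342 to 409 CPM), as were granulocyte precursor markers in WT (45.4 to 66.1 against 19.3 to 32.9 CPM). Fibroblast markers were lower with LPS at 2 h in WT (0.371 to 0.716 against 1.16 to 58.7 CPM) and overlapped in KO. In KO the share of counts from genes encoded in the mitochondrial DNA was lower with LPS at 2 h (8.18 to 8.78%) than in Control (9.39 to 9.66%). KO LPS library 1, one of the 4 of low total, stood apart from the other 2 libraries of its group, at chi-square values per degree of freedom of 9.32 and 7.76 against them and 2.94 between them. The part of these in the results at 2 h was not tested.

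The calls shared by both genotypes at 2 h were Acod1, Dld, Dlst and Pdp1. Dld, the dihydrolipoyl dehydrogenase that both the pyruvate and the oxoglutarate dehydrogenase complexes use, rose from 66.2, 63.0 and 62.4 CPM to 80.5, 91.7 and 90.8 CPM in WT. In KO it rose from 60.8, 66.1 and 63.8 CPM to 77.4, 83.3 and 82.0 CPM. No LPS library reached down to the Control libraries, and the log2 fold changes were 0.47 (adjusted p = 4.9e-06, SE 0.08) and 0.35 (adjusted p = 0.000545, SE 0.08). Dlst, the core of the oxoglutarate complex, rose by 0.31 on the log2 scale in WT and by 0.21 in KO.

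Pdp1, a phosphatase that reactivates pyruvate dehydrogenase, fell. It went from 29.6, 32.1 and 27 CPM to 18.6, 18.1 and 17.1 CPM in WT and from 27.1, 29.7 and 25.1 CPM to 13.3, 13.8 and 18.6 CPM in KO. The groups did not overlap, with log2 fold changes of -0.73 (adjusted p = 0.000131, SE 0.15) and -0.82 (adjusted p = 3.26e-05, SE 0.16). Apart from Acod1, this was the change of greatest size among the members at 2 h in either genotype. The library values of Dld and Pdp1, and of the further members below other than Acod1, Idh1, Idh2 and Mdh2, were chosen for printing after they had been seen.

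The remaining calls at 2 h were small and did not hold when libraries were left out. In WT, Idh3g, a regulatory subunit of the NAD-linked isocitrate dehydrogenase, was lower at -0.35 (adjusted p = 0.0385), a call that did not hold without Control library 2 (-0.28), Control library 3 (-0.38) or LPS library 1 (-0.26). In KO, citrate synthase (Cs, 0.26) lost its call without Control library 1 (0.23) or 2 (0.25) or LPS library 1 (0.20) or 3 (0.24). Ogdh, the first subunit of the oxoglutarate complex (0.22), lost it without Control library 1 (0.19) or 3 (0.21) or LPS library 1 (0.13) or 3 (0.22). Dlst (0.21) and Pdha1, the catalytic subunit of pyruvate dehydrogenase (-0.26), lost theirs without any one of the 3 Control libraries, LPS library 1 or LPS library 3, at 0.17 to 0.23 and at -0.18 to -0.29. The count in KO was then 3 without Control library 1 or LPS library 3 and 4 without Control library 2 or 3 or LPS library 1.

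At 24 h of LPS the members moved more widely. Of the 34, 15 were called in WT (44.1%, 10 higher and 5 lower) and 18 in KO (52.9%, 10 higher and 8 lower), where 39.5% of all tested genes were called in WT (19.6% higher and 19.9% lower) and 40.9% in KO (19.9% higher and 21% lower). Groups did not overlap for 16 members in WT (47.1%, against 48.1% of all genes) and 19 in KO (55.9%, against 50.2%). Changes other than that of Acod1 stayed under a log2 fold change of 1, with a median size over the members of 0.211 in WT and 0.262 in KO (0.311 and 0.323 over all genes). Of the 12 members higher in either genotype 8 were higher in both, and of the 8 members lower in either 5 were lower in both. LPS libraries at 24 h also held a lower share of counts from genes encoded in the mitochondrial DNA (5.60 to 6.89%) than Control libraries (8.55 to 9.34%), and fewer counts of cell cycle markers (98.0 to 128 against 318 to 383 CPM). Granulocyte precursor markers were lower with LPS (30.6 to 33.4 against 51.4 to 61.2 CPM in WT, 42 to 63.2 against 128 to 198 CPM in KO), and macrophage markers were higher (18000 to 23300 against 16000 to 16600 CPM in WT, 13300 to 13500 against 10600 to 11200 CPM in KO). The macrophage sum includes Lyz2, whose group mean was highest in WT LPS at 24 h, at 12070 CPM. Fibroblast markers were lower with LPS in WT (0 to 2.32 against 2.74 to 45.2 CPM) and overlapped in KO. Dendritic cell markers were lower with LPS in KO (1.34 to 3.55 against 6.09 to 8.69 CPM) and overlapped in WT. The part of these differences in the results at 24 h was not tested.

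The 13 enzymes of the ring held 5 higher and 0 lower calls in WT, and 5 higher and 3 lower calls in KO. Mdh2, which closes the ring by oxidising malate in mitochondria, had the smallest adjusted p of the members after Acod1. It rose from 139, 135 and 141 CPM to 195, 212 and 201 CPM in WT and from 147, 141 and 140 CPM to 211, 205 and 215 CPM in KO. All LPS libraries were above all Control libraries, with log2 fold changes of 0.55 (adjusted p = 1.38e-09, SE 0.07) and 0.56 (adjusted p = 6.47e-10, SE 0.07). Cs (0.22 and 0.38), Ogdh (0.20 and 0.23) and Dlst (0.21 and 0.29) were higher in both genotypes. Idh3a, the catalytic subunit of the NAD-linked isocitrate dehydrogenase, passed in WT only (0.26, against 0.17 in KO with an adjusted p of 0.144), and Idh3b in KO only (0.19, against 0.12 in WT with an adjusted p of 0.202).

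These small rises rest on few libraries. WT LPS library 2 stood apart from the other 2 of its group, at chi-square values per degree of freedom of 7.48 and 6.87 against them and 3.21 between them. Without this library alone, the WT calls of Cs (0.16), Idh3a (0.20), Ogdh (0.14) and Dlst (0.15) were all lost. Cs in WT also lost its call without Control library 1 (0.18) or 3 (0.22), Idh3a without Control library 1 (0.21) or 2 (0.24), Ogdh without Control library 2 (0.20) or 3 (0.16), and Dlst without Control library 2 (0.18) or 3 (0.19). In KO, Idh3b lost it without Control library 1 (0.16) or 2 (0.21) or LPS library 2 (0.14), and Ogdh without LPS library 3 (0.20), while Cs and Dlst kept theirs without any one library.

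The lower calls of the ring were all in KO. Suclg2, the GTP-forming subunit of succinyl-CoA ligase, stood at 21.1, 14 and 12.3 CPM in KO Control and at 7.46, 9.15 and 10.2 CPM with LPS, a log2 fold change of -0.79 (adjusted p = 0.00099, SE 0.20). The WT libraries overlapped, at 11.5, 10.3 and 17.6 CPM in Control and 11.1, 9.76 and 10.7 CPM with LPS (-0.34, adjusted p = 0.168). Aco1, the cytosolic aconitase that also acts as an iron sensor, was at -0.32 (adjusted p = 0.0204) in KO and -0.21 (adjusted p = 0.145) in WT, and Fh1, which hydrates fumarate, at -0.39 (adjusted p = 0.0323) in KO and 0.06 in WT. The call of Aco1 was lost without KO Control library 3 (-0.25) or LPS library 1 (-0.26) or 3 (-0.29), and that of Fh1 without Control library 2 (-0.26) or LPS library 2 (-0.26).

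A call in 1 genotype only does not show a difference between them. The test of the difference in the LPS response called 0 of the 34 members at 2 h and 0 at 24 h (edgeR, where 0.0% and 0.0086% of all genes were called), with 3 and 2 members at an unadjusted p under 0.05 and 0 called by DESeq2. The SE of a member's difference was 0.0823 to 0.415 at 2 h and 0.081 to 0.345 at 24 h, which bounds the differences that could be seen. WT and KO share no library in these comparisons, and the sign of the log2 fold change was the same for 28 of 34 members at 24 h (82.4%, against 82.0% of all genes) and for 20 at 2 h (58.8%, against 72.7%). Across the 33 members other than Acod1, Pearson's r between the genotypes' log2 fold changes was 0.882 at 24 h and 0.569 at 2 h, given as a description across genes.

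Mdh1, the cytosolic partner of Mdh2, fell while Mdh2 rose. It went from 124, 117 and 119 CPM to 67.3, 94.5 and 80.7 CPM in WT and from 120, 122 and 115 CPM to 88.6, 82.5 and 74.2 CPM in KO. The groups did not overlap, with log2 fold changes of -0.57 (adjusted p = 5.77e-08, SE 0.08) and -0.54 (adjusted p = 1.3e-07, SE 0.08). The ratio of the 2 counts within a library needs no scaling. On the log2 scale it was 1.53, 1.17 and 1.32 in the WT and 1.25, 1.31 and 1.53 in the KO libraries of LPS 24 h, while the group means of the other 12 groups lay between 0.20 and 0.49. Every library of LPS at 24 h had at least 1.17, and the highest library of another group had 0.58. Mdh1 shares part of its span with Wdpcp on the other strand and with a small RNA gene on its own strand, and the use of strand in counting is not given, so its counts are uncertain. The same holds for the span that Idh3b, Sucla2, Fh1, Pdha1, Pcx and Slc25a11 each share with a gene on the other strand, and Cs with one on its own strand.

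**Figure D3:**
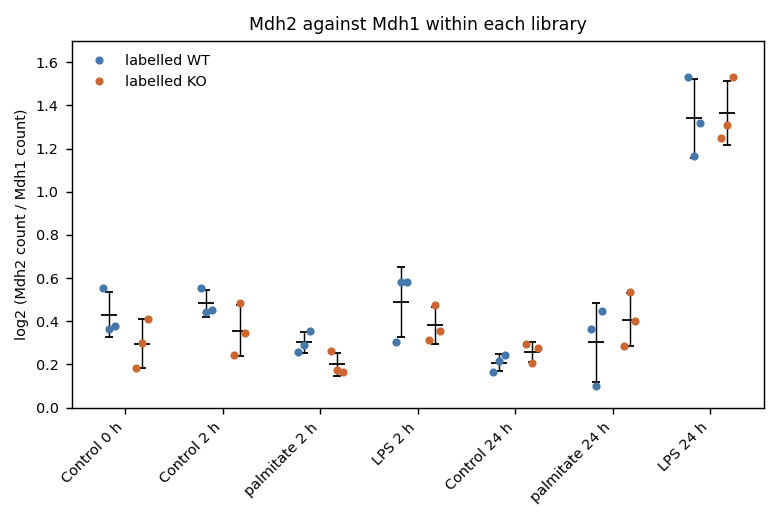
Log2 ratio of Mdh2 to Mdh1 counts within each library, by condition. Points are single libraries (blue, labelled WT, and orange, labelled KO) and bars the mean ± SD of 3. The 6 libraries of LPS 24 h lie between 1.17 and 1.53 and all others below them.

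The other cytosolic and NADP-linked dehydrogenases moved less. Idh1, which makes cytosolic NADPH, was lower in both genotypes at -0.26 (adjusted p = 0.0249 in WT and 0.0256 in KO). In WT its call was lost without Control library 2 (-0.25) or 3 (-0.26) or LPS library 1 (-0.15) or 3 (-0.19), and it was -0.46 without LPS library 2. In KO it was lost without Control library 3 (-0.23) or LPS library 2 (-0.19) or 3 (-0.22). Idh2, the mitochondrial NADP-linked form, and the malic enzymes Me1 and Me2 were not called, at log2 fold changes from -0.26 to 0.04. Me2, counted in this group, is a mitochondrial malic enzyme that uses mainly NAD.

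Of the 8 genes of the pyruvate dehydrogenase complex and its regulators, 2 were higher and 2 lower in each genotype at 24 h. Dlat, the acetyltransferase core of the complex, rose from 31.2, 34.1 and 31.9 CPM to 43.8, 46.7 and 44.6 CPM in WT and from 31.3, 34.1 and 34.4 CPM to 44.7, 46.7 and 48.5 CPM in KO. No library overlapped, at log2 fold changes of 0.47 (adjusted p = 0.000197, SE 0.10) and 0.48 (adjusted p = 0.000118, SE 0.10). Pdha1 passed in WT at 0.46 (adjusted p = 5.67e-05) and not in KO at 0.18 (adjusted p = 0.124). Pdhb and Pdhx, the remaining structural subunits, were not called, at log2 fold changes from -0.06 to 0.28.

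The kinases that inactivate the complex went apart. Pdk1 fell from 59.5, 51.8 and 51.6 CPM to 29.1, 34.8 and 35.1 CPM in WT and from 50.7, 53.0 and 48.1 CPM to 27.3, 23.2 and 32.9 CPM in KO. The log2 fold changes were -0.71 (adjusted p = 1.11e-06, SE 0.11) and -0.85 (adjusted p = 2.66e-08, SE 0.12), the greatest in size after Acod1 in each genotype. Pdk3 rose in KO, from 16.4, 7.65 and 13.6 CPM to 17.6, 22 and 20.2 CPM (0.68, adjusted p = 0.00369, SE 0.19), and was at 0.32 (adjusted p = 0.191) in WT. The KO call of Pdk3 was lost without Control library 2, the lowest of its group (0.43). The mean log2 ratio of Pdk3 to Pdk1 counts was -0.93 (WT) and -0.47 (KO) with LPS at 24 h, against -1.96 and -2.08 in Control. Pdk2 was not called.

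Pdp1 was lower at 24 h as it was at 2 h. It stood at 27.8, 27.6 and 31 CPM in WT Control and 22.2, 16.9 and 21.9 CPM in WT LPS, and at 24.3, 31.3 and 29.9 CPM in KO Control and 23, 18.9 and 19.6 CPM in KO LPS. All LPS libraries were below all Control libraries of their genotype, at log2 fold changes of -0.51 (adjusted p = 0.00286, SE 0.14) and -0.49 (adjusted p = 0.00389, SE 0.14).

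Among the genes of entry and amino acid exchange, Got1 rose and Glud1 fell in both genotypes. Got1, the cytosolic aspartate aminotransferase, went from 34.2, 34.6 and 35.5 CPM to 47.2, 57.1 and 55.0 CPM in WT and from 27.3, 35 and 33 CPM to 49.8, 47.8 and 43.9 CPM in KO. The groups did not overlap (0.61, adjusted p = 4.42e-05, SE 0.12, and 0.56, adjusted p = 0.000191, SE 0.12). Glud1 was at -0.25 (adjusted p = 0.00036) and -0.33 (adjusted p = 5.73e-06). Got2, the mitochondrial partner of Got1, was not called, at 0.10 and 0.02, and neither was Pcx, at 0.03 and 0.39.

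Of the 3 genes that export citrate and exchange oxoglutarate, Slc25a11 was higher in both genotypes. This carrier swaps oxoglutarate for malate across the inner membrane, and its log2 fold changes were 0.51 (adjusted p = 9.04e-05) and 0.47 (adjusted p = 0.000252). Slc25a1, the citrate carrier, was at 0.02 and 0.01, and Acly, which splits exported citrate to acetyl-CoA, at -0.04 and -0.13. Acly had the narrowest range of all members, with group means from 143 to 164 CPM over the 14 groups. Acly and Slc25a1 were among 9 members called in none of the 22 comparisons, with Sucla2, Suclg1, Pdhb, Pdhx, Pdk2, Me2 and Got2.

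**Figure D4:**
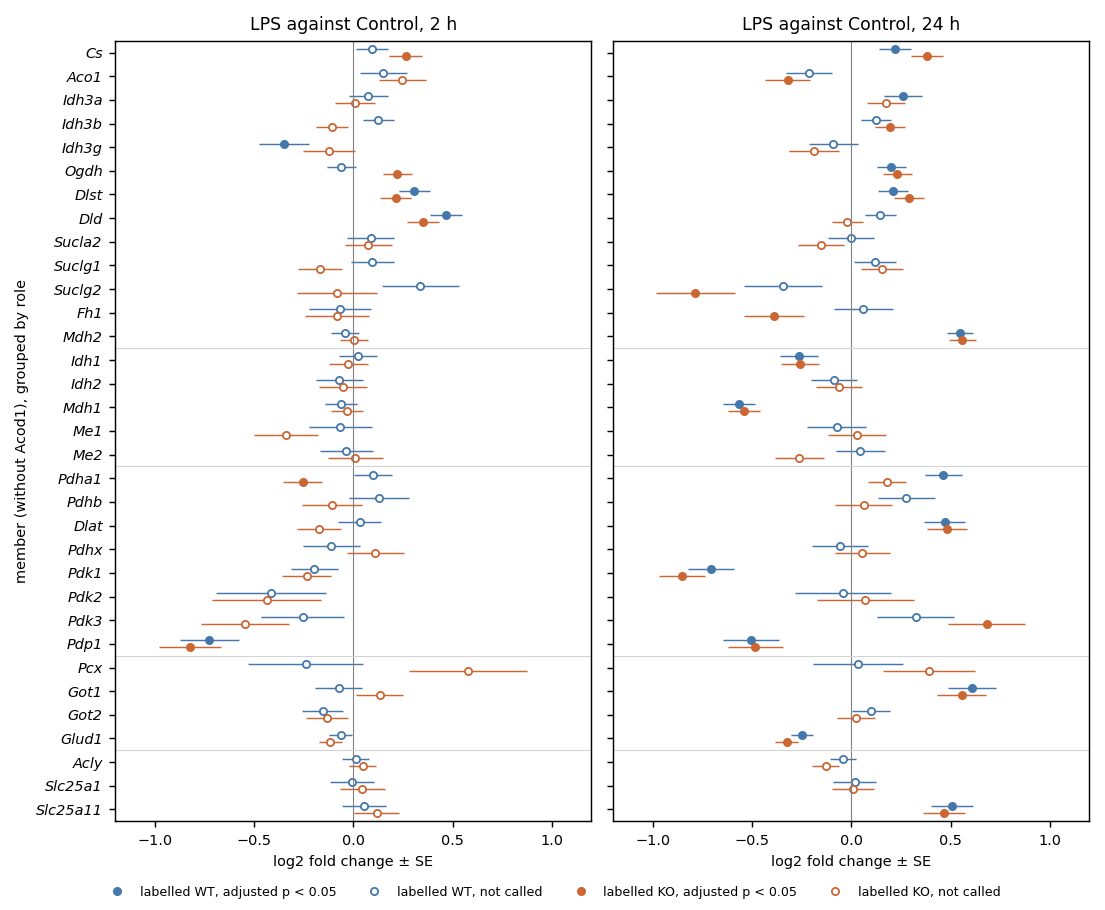
Log2 fold change of each member, LPS against Control, at 2 h and 24 h and in WT and KO, with bars of 1 SE. Filled points passed an adjusted p of 0.05 and open points did not. Acod1 (4.02 to 4.99) is left out so that the other 33, which lie between -0.85 and 0.68, can be seen.

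Whether a member's response to LPS differed between 2 h and 24 h was tested over both genotypes. Of the 34 members 14 passed (6 higher and 8 lower at 24 h), where 46.3% of all tested genes did (21.7% higher and 24.5% lower). Pdk3 had the largest difference, at 0.90 (adjusted p = 0.000248, SE 0.20), followed in the same direction by Mdh2 (0.57), Got1 (0.55), Dlat (0.55), Slc25a11 (0.40) and Pdha1 (0.40). Acod1, Suclg2 (-0.69), Pdk1 (-0.56), Mdh1 (-0.51), Aco1 (-0.47), Dld (-0.35), Idh1 (-0.26) and Glud1 (-0.20) had the opposite sign. Pdp1 was not called, and was lower at both times. The call of Idh1 was lost without WT LPS 2 h library 2 (-0.23), WT LPS 24 h library 1 (-0.20) or 3 (-0.21), KO Control 2 h library 1 (-0.23), KO LPS 2 h library 3 (-0.23), KO Control 24 h library 3 (-0.24) or KO LPS 24 h library 2 (-0.22) or 3 (-0.23).

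**Figure D5:**
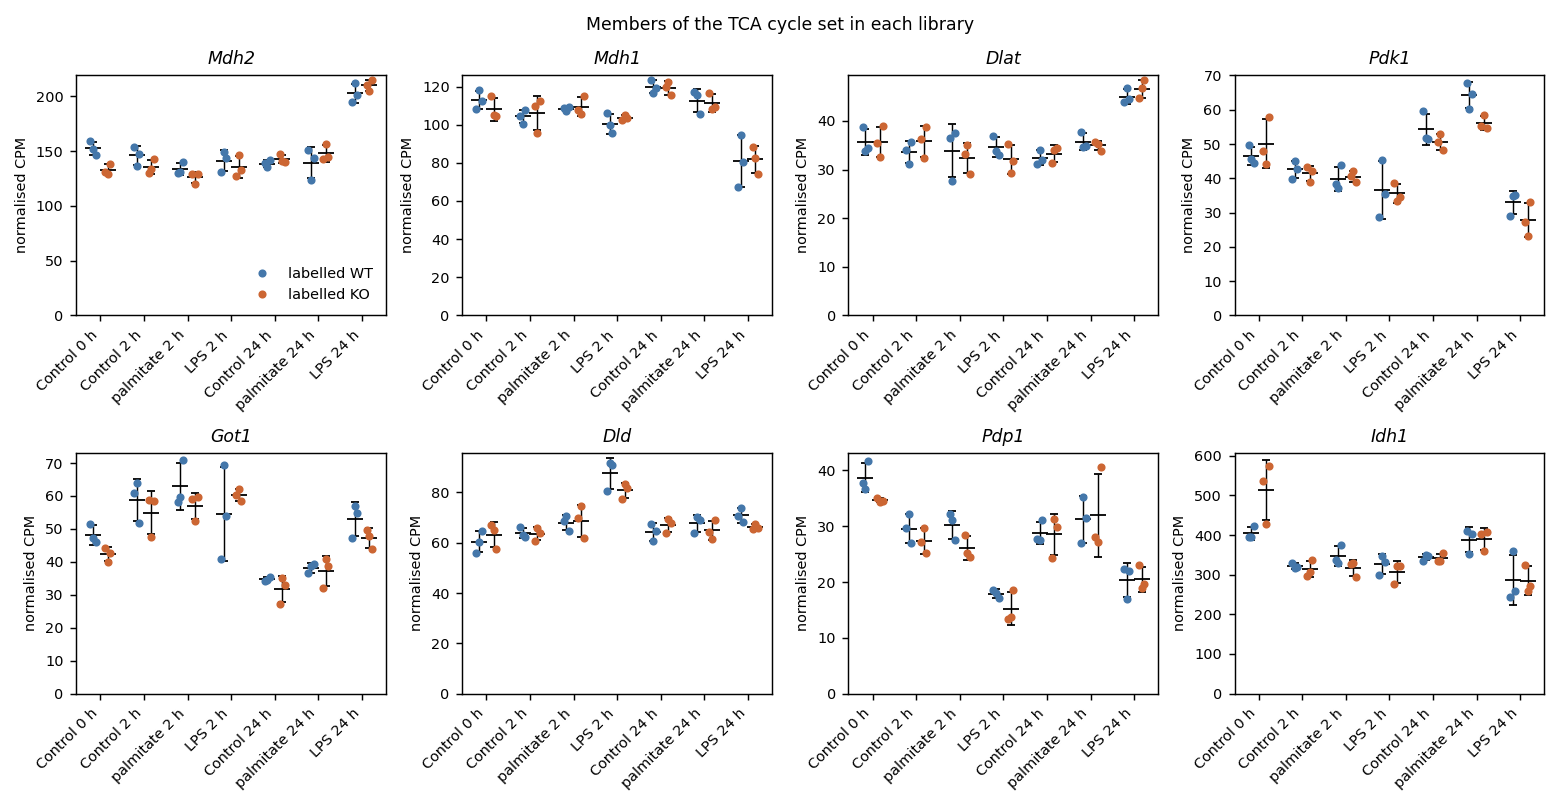
Level in CPM of 8 members in all 42 libraries, 1 panel each (Mdh2, Mdh1, Dlat, Pdk1, Got1, Dld, Pdp1 and Idh1). Points are single libraries (blue, labelled WT, and orange, labelled KO) and bars the mean ± SD of 3. By group mean, Mdh2 and Dlat stand highest and Mdh1 and Pdk1 lowest at LPS 24 h (Pdk1 overlaps with LPS 2 h), and Got1 is lower in Control at 24 h than at 2 h.

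Members also changed between Control time points. Over both genotypes, 8 members were called at 2 h against 0 h (2 higher and 6 lower), where 16.7% of all genes were called (9.35% higher and 7.36% lower), and 7 at 24 h against 0 h (3 higher and 4 lower), where 16.5% were (7.9% higher and 8.62% lower). Besides Acod1, Got1 rose by 0.33 on the log2 scale at 2 h (adjusted p = 0.0022) and was lower than at 0 h at 24 h (-0.43, adjusted p = 0.0002). Its WT Control libraries held 51.6, 47.2 and 45.9 CPM at 0 h, 61.0, 63.9 and 51.7 CPM at 2 h and 34.2, 34.6 and 35.5 CPM at 24 h. The mean log2 ratio of Got2 to Got1 counts in Control was 0.39 (WT) and 0.50 (KO) at 0 h, -0.05 and 0.05 at 2 h, and 0.95 and 1.10 at 24 h, and it was 0.43 and 0.54 with LPS at 24 h. The Got1 levels of WT LPS libraries at 24 h overlapped those of WT Control at 0 h.

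Idh1 was lower than at 0 h at both times (-0.52, adjusted p = 2.2e-08, and -0.41, adjusted p = 7.3e-06), and so was Pdp1 (-0.37 and -0.35). Fh1 (-0.37) was lower at 2 h, and its call was lost without WT Control 0 h library 1 (-0.29). Cs (-0.18), Aco1 (-0.23) and Pcx (-0.58) were called lower at 2 h as well, and these calls were lost without any one of 6, 11 and 8 of the 12 libraries, at -0.14 to -0.17, -0.21 to -0.24 and -0.50 to -0.55. The count at 2 h was 5 without WT Control 0 h library 1, KO Control 0 h library 3, WT Control 2 h library 3 or KO Control 2 h library 2. At 24 h Pcx (0.58, adjusted p = 0.013) and the cytosolic malic enzyme Me1 (0.50, adjusted p = 0.00049) were higher. The call of Pcx was lost without WT Control 0 h library 2 (0.50) or WT Control 24 h library 3 (0.52), and Pdha1 (-0.19) lost its call without any one of 6 libraries (-0.15 to -0.18).

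Palmitate moved the members little. None of the 34 was called in WT at 2 h, in KO at 2 h or in WT at 24 h (edgeR, where 0.275%, 0.112% and 0.852% of all tested genes were called), with 1, 1 and 3 members at an unadjusted p under 0.05 and 0 called by DESeq2. In KO at 24 h 1 member was called, where 0.877% of all genes were. The size of the log2 fold change had a median over the members of 0.0725 to 0.0981 in the 4 comparisons, below the 0.0999 to 0.126 of all genes. The SE of a member's log2 fold change was 0.0569 to 0.274, which bounds the changes that could be seen. Groups did not overlap for 2 members in WT (5.88%, against 14.9% of all genes) and 1 in KO (2.94%, against 11.2%) at 2 h, and for 6 in WT (17.6%, against 15.0%) and 7 in KO (20.6%, against 14.3%) at 24 h. The test of a difference in the palmitate response between genotypes called 0 members at 2 h and 0 at 24 h, where 0.0% of all genes were called at either time, with 0 and 1 members at an unadjusted p under 0.05 and 0 by DESeq2.

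The member called with palmitate in KO at 24 h was Acod1. It stood at 50.7, 52.2 and 66.1 CPM with palmitate and at 41, 31.7 and 32 CPM in Control, without overlap, at a log2 fold change of 0.72 (adjusted p = 0.0167, SE 0.17). The call was lost with DESeq2 (adjusted p = 0.0528) and without KO Control library 2 (0.67), Control library 3 (0.66) or palmitate library 3 (0.58). In WT it stood at 57.9, 44.3 and 54.5 CPM with palmitate and 37.3, 37.2 and 35.3 CPM in Control, also without overlap (0.52, adjusted p = 0.192, SE 0.17). At 2 h the palmitate libraries held 53.2, 60.2 and 93.2 CPM in WT (-0.46, adjusted p = 0.291, SE 0.15) and 73.2, 82.3 and 88.6 CPM in KO (-0.15, SE 0.14), so the sign at 2 h was opposite to that at 24 h and neither value at 2 h passed. The levels with palmitate at 24 h stayed well under the 512 CPM of the lowest LPS library at that time. The summed fibroblast markers in KO at 24 h were lower with palmitate (0 to 7.32 CPM) than in Control (39.5 to 133 CPM). Genes encoded in the mitochondrial DNA held a higher share of counts with palmitate in WT at 24 h (9.196 to 9.705% against 8.55 to 8.767% in Control), while this share overlapped in KO. The part of these in the results with palmitate was not tested.

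Between the genotypes, 3 members were called in Control at 0 h, where 12.5% of all tested genes were called. Idh1 was higher in KO, at 536, 428 and 575 CPM against 394, 395 and 424 CPM in WT, without overlap (0.34, adjusted p = 0.0109, SE 0.09). Idh2 was lower in KO, at 60.9, 62.0 and 38.9 CPM against 67.1, 74.5 and 67.9 CPM (-0.37, adjusted p = 0.0249, SE 0.12). Mdh2 was lower in KO, at 131, 129 and 139 CPM against 159, 152 and 146 CPM (-0.20, adjusted p = 0.0466, SE 0.07). The KO libraries of this condition also held more counts of fibroblast markers (42 to 69.3 against 0.529 to 0.905 CPM) and of granulocyte precursor markers (73.0 to 81.5 against 47.2 to 54.4 CPM). They held fewer counts of macrophage markers, a sum that includes Lyz2 (10200 to 14100 against 15300 to 15600 CPM), and of B cell markers (3.06 to 7.02 against 8.20 to 12.8 CPM). They also held a lower share of counts encoded in the mitochondrial DNA (8.26 to 9.05% against 9.91 to 10.02%). The differences in granulocyte precursor and macrophage markers had the same direction in every other condition. The part of all these differences in the result was not tested.

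None of the 3 calls held throughout. Idh1 lost its call without KO library 1 (0.32) or KO library 3 (0.26), Idh2 without WT library 2 (-0.33) or KO library 3 (-0.18), and Mdh2 without any one of the 6 libraries (-0.16 to -0.23). Idh2 also lost it in a fit of only the compared libraries (adjusted p = 0.0549), and Mdh2 under each of the 11 alternatives, DESeq2 (adjusted p = 0.0543) and RLE size factors (adjusted p = 0.0607) included. Leaving out KO library 3 left 0 calls, and leaving out WT library 2 or KO library 1 left 1. In the other 6 conditions the KO against WT log2 fold change was -0.13 to 0.01 for Idh1, -0.25 to 0.08 for Idh2 and -0.10 to 0.08 for Mdh2, and none was called.

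In those 6 conditions 0 of the 34 members were called between the genotypes (edgeR), where 0.49% of all genes were called in Control at 2 h, 0.12% in Control at 24 h, 0.146% with palmitate at 2 h, 0.0688% with palmitate at 24 h, 0.465% with LPS at 2 h and 0.146% with LPS at 24 h. At an unadjusted p under 0.05 there were 1, 0, 2, 1, 2 and 2 members in the same order, and DESeq2 called 0 in each. Groups did not overlap for 8 members in Control at 0 h (23.5%, against 28% of all genes) and for 1 to 6 members in the other conditions (2.94 to 17.6%, against 11.6 to 16.9%). Granulocyte precursor markers were higher in KO than in WT in each of these 6 conditions, without overlap (65 to 125 against 19.3 to 32.9 CPM in Control at 2 h). Macrophage markers, Lyz2 included, were lower in KO in each, also without overlap (10100 to 10900 against 14300 to 14900 CPM in Control at 2 h). The part of these in the results was not tested.

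A further 36 genes surround these steps: succinate dehydrogenase and its assembly factors, the pyruvate carriers, lipoate synthesis, lactate dehydrogenases and carriers of dicarboxylates and amino acids. Of these, 32 passed the filter, and Pdk4, Me3, Slc25a21 and Adhfe1 did not. At 2 h of LPS 2 were called in WT (1 higher and 1 lower, where 23.1% of all genes were called) and 4 in KO (1 higher and 3 lower, where 23.9% were). At 24 h 15 were called in WT (46.9%, 11 higher and 4 lower, against 39.5% of all genes) and 10 in KO (31.2%, 6 higher and 4 lower, against 40.9%), and 6 higher and 4 lower calls were in both genotypes. Palmitate called 0 of them in each of the 4 comparisons (edgeR), with 3 and 5 at an unadjusted p under 0.05 at 24 h in WT and KO and 3 and 1 at 2 h.

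Those with the smallest adjusted p at 24 h included 2 carriers that rose more than any member but Acod1. Slc25a10, which exchanges malate and succinate for phosphate, went from 40.1, 41 and 37.7 CPM to 114, 102 and 114 CPM in WT, at log2 fold changes of 1.48 (adjusted p = 2e-18) and 1.63 in KO (adjusted p = 3.7e-20). It shares part of its span with a counted gene on the other strand, so its counts are uncertain in the same way as those of Mdh1. Slc25a22, a glutamate carrier, went from 8.98, 14.1 and 9.03 CPM to 34.9, 33.3 and 38.1 CPM in WT, at 1.71 and 1.86. Sdhb, the iron-sulphur subunit of succinate dehydrogenase, was at 0.70 and 0.74.

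Among the genes that fell in both genotypes at 24 h, 3 were named after their values had been seen. They were Slc25a13, an aspartate and glutamate carrier (-1.32 and -1.62), Ldhb, a lactate dehydrogenase subunit (-1.07 and -1.55), and Nnt, the proton-driven transhydrogenase of the inner membrane (-0.66 and -0.59).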

How the data were processed

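RNA-seq libraries of BMDM (stranded, ribodepleted total RNA, read in pairs) were processed by the authors with fastp 0.19.11 and STAR 2.7.3a, named in the submitters' processing notes, and aligned to mm10. The table deposited by the authors holds raw counts per gene, not normalised. Their annotation release and the use of strand are not given in the sources used here. Each of the 42 columns names a group and not a replicate. All columns matched 1 of 14 groups, with 3 libraries in each.

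The analysis used edgeR 4.0.16 in R 4.3.3. The 11624 genes kept by filterByExpr (99.88% of counts) were scaled by TMM and fitted in 1 quasi-likelihood model with a mean per group over all 42 libraries. P-values were adjusted by Benjamini-Hochberg over these genes in each of 22 comparisons, with calls made under an adjusted p of 0.05. SE is the size of the log2 fold change over the square root of F. CPM use TMM-scaled library sizes. Levels per length used the exon union or the longest transcript of GENCODE M21, the annotation of GRCm38. Promoter windows were those of RefSeq. The CPM that 3 counts stand for covers counting error only, while SD and SE include the spread between libraries. Replicates of every group differed by more than sampling noise (chi-square per degree of freedom of 1.93 to 9.32 over 42 pairs).

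The members, the further 36 genes, the marker lists and the tests were chosen with earlier results of these data known. Values per library were to be given for Acod1, for members changed by a log2 fold change of at least 1 under a treatment and for members called between genotypes, and of the further genes the 4 with the smallest adjusted p for LPS. Some of the further genes are not reported here by name. Others named with library values are said to have been chosen later. Data were simulated for LPS at 24 h in WT with 200 changed genes (11326 tested). Of changes of 1.5-, 2- and 4-fold, 67.8%, 69.9% and 89.7% were recovered. False calls made up 6.17%, and 0 genes were called where nothing changed. The simulation gave genes of like level the same spread and held no library that stood apart. Far more genes were called in the real comparison (39.5%), so these rates need not hold there.

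The alternatives were RLE size factors, all genes with at least 1 count, DESeq2 1.42.0 (Wald test), a fit of only the compared libraries, leaving out each library in turn and, added after the data were seen, leaving out the 4 libraries under 4000000 counts.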

Additional observations from a re-analysis of the deposited data

Results flagged for a closer look

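For 14 members the response to LPS differed between 2 h and 24 h by a test of the difference itself (edgeR, both genotypes, adjusted p under 0.05), and the values are 24 h minus 2 h on the log2 scale. The difference was positive for Pdk3 (0.90), Mdh2 (0.57), Got1 (0.55), Dlat (0.55), Slc25a11 (0.40) and Pdha1 (0.40). It was negative for Acod1 (-0.72), Suclg2 (-0.69), Pdk1 (-0.56), Mdh1 (-0.51), Aco1 (-0.47), Dld (-0.35), Idh1 (-0.26) and Glud1 (-0.20). Over all tested genes 46.3% differed in this test. Each time point was set against its own Control.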

How the results depend on the processing

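No paired analysis was possible because the columns of the table carry no replicate numbers, although the sample titles do. Of 78 member calls over the 22 comparisons, 49 held in every alternative run, and of 1200 values of called members under alternatives 1058 kept their side of the threshold, 142 lost the call and 0 reversed. RLE size factors moved no count by more than 1.5 times (KO against WT in Control at 0 h went from 3 to 2). The count of 7 for LPS at 2 h in KO was 4 with all genes, 4 with only the libraries compared and 4 without the 4 libraries of low total, and 3 to 7 with a library left out. Palmitate at 2 h in WT gave 1 with all genes and 1 with only the libraries compared (0 to 1 with a library left out), and at 24 h in WT likewise 1 and 1. Palmitate at 24 h in KO gave 0 with DESeq2 (0 to 1 with a library left out). KO against WT in Control at 0 h gave 1 with only the libraries compared (0 to 3 with a library left out), and with LPS at 2 h 1 with all genes. Control at 2 h against 0 h gave 5 to 8 with a library left out. The call of Pdp1 for Control at 24 h against 0 h (-0.28) and that of Glud1 for the time difference in LPS (-0.15) were lost without the libraries of low total. The causes were not tested. Members of few counts, such as Pdk2 and Pcx with as few as 10 and 11 counts in a library, had the largest SE, so small changes in them were not detectable at this depth. The labels give no batch or date, so none was examined.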
